A study of Mus musculus with 16 samples.

Results

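The cytosolic ribosomal protein genes are the nuclear genes whose products, together with ribosomal RNA, build the ribosome of the cytoplasm. They were taken here by gene symbol, as Rpl or Rps followed by a number and at most the letter a, x or y, plus Rpsa and Rplp0 to Rplp2. The rule uses no measured value and gave 76 of the 46403 gene symbols in the files, 46 of the large subunit and 30 of the small subunit. Fau and Rps3a1, which also encode ribosomal proteins, and paralogues with longer names are among the genes that do not match the rule.

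RNA of the CA1 subfield of the hippocampus was sequenced from 8 Fmr1-KO mice and 8 wild-type mice (WT, labelled C57BL/6), and the question asked was how their CA1 transcriptomes differ. The product of Fmr1, FMRP, binds mRNAs, is found on polyribosomes, holds translation back and is lost in fragile X syndrome. All mice of both genotypes were yoked controls of active place avoidance, a test in which trained animals learn to avoid a shock zone. Their age, their sex, the knockout allele and whether the genotypes were littermates are not stated in the labels. Each library is labelled as an animal of its own, and p-values measure only the spread between these samples.

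A ribosome carries a single copy of most of its proteins, and cells keep the mRNAs of these proteins at similar, high levels. Many of these mRNAs begin with a cytosine followed by a run of pyrimidines, the terminal oligopyrimidine (TOP) motif, through which mTOR signalling and Larp1 set their translation. In neurons they are also found in dendrites and axons. Mammalian genomes further hold many intronless copies of ribosomal protein mRNAs, which arose by retrotransposition and which are mostly annotated as pseudogenes.

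These copies bear on the measurement, because a read from a stretch that gene and copy share cannot be placed on sequence alone. Coding sequences of GENCODE M21 (GRCm38) are shown for the members with most of their reads in such copies. Rps12, a small subunit protein, lies on the minus strand of chromosome 10 in 7 exons, with its coding sequence shown from position 117 to 176. Its single-exon copy Rps12-ps3 lies on chromosome 19 at 59322290 to 59322783. The 411 coding bases of the Rps12 transcript matched that copy at 396 bases with 0 mismatches. The other 15 bases, in capitals, stood only in the annotated Rps12 transcript used here. Whether they are extra in that transcript or lost from the copy was not tested.
Rps12: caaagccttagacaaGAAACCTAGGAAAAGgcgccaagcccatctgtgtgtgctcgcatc
Rps12-ps3: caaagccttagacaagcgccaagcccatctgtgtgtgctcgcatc

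For Rpl27, Rpl12, Rpl5 and Rpl10 the coding sequence and the single-exon copy were identical over the full 408, 495, 891 and 642 coding bases. The first 60 coding bases stand here for 2 of these pairs, in lower case throughout since no base differs. Gm10275, the copy of Rpl12, lies on the minus strand of chromosome 10 at 29698746 to 29699380. Gm15500, the copy of Rpl5, lies on the minus strand of chromosome 7 at 114705217 to 114706235.
Rpl12: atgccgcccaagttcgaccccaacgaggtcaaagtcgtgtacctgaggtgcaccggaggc
Gm10275: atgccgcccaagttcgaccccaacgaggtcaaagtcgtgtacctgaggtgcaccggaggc
Rpl5: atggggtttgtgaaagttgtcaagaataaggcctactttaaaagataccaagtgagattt
Gm15500: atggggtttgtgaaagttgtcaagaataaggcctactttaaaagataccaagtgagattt

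The starts of 5 members among the 10 with the smallest p between genotypes show a pyrimidine tract near the annotated start, or none. Each stretch is 30 bases of RefSeq sequence (GRCm38.p6) on the strand of the gene, 15 bases before the start and 15 from it on. Capitals mark a pyrimidine tract, which was searched on that strand only and defined as a C followed by C or T for 8 or more bases in all, with its first base within 20 bases of the start. Rps27 lies at chr3:90213634-90213663 on the minus strand, Rpl13a at chr7:45128731-45128760 on the minus strand, Rpl27a at chr7:109519180-109519209, Rpl35a at chr16:33056467-33056496 and Rps16 at chr7:28350674-28350703, these last on the plus strand. The tract begins 2 bases after the annotated start in Rpl13a and 4 bases before it in Rpl27a. Rpl35a has other annotated starts without a tract.
Rps27: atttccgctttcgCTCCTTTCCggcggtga
Rpl13a: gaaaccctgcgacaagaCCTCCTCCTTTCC
Rpl27a: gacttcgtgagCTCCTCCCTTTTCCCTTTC
Rpl35a: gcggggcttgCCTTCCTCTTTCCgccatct
Rps16: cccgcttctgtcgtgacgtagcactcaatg

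Of the members, 56 had a start in the RefSeq table. A tract stood near the start of 30 of them (53.6%), against 16.6% of all 27025 genes in that table and 18.1% of the tested genes that are no members. Of 13 other genes listed below as TOP mRNAs and found in that table, 4 had a tract (30.8%). No match in a window says only that these letters were not found there.

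Depth was low. Fmr1-KO libraries held 1480966 to 2979481 estimated counts and WT libraries 2126632 to 3275003. The exceptions were 878484 in WT replicate 3 and 515103 in WT replicate 6. These WT libraries also differed in composition, with 80.7% and 58.4% of counts in protein-coding transcripts, so results that rest on them are also given without them. Fmr1, the targeted gene, averaged 22.2 ± 7.08 CPM in Fmr1-KO libraries, against 58.1 ± 19.4 CPM in WT libraries (SD, n = 8 each). CPM are counts scaled to a common library size after TMM normalisation. Its log2 fold change was −1.41 (SE 0.22, edgeR adjusted p = 0.0112), as the labels say. Markers of CA1 pyramidal cells summed to 9325 to 10557 CPM in Fmr1-KO and 8972 to 11386 CPM in WT libraries. Without WT replicates 3 and 6 the WT range was 9604 to 10453 CPM. The 6 markers of choroid plexus and ependyma summed to 63.8 to 103 CPM in Fmr1-KO libraries. In WT libraries their sum was 30.02 to 111 CPM, and 56.1 to 78.1 CPM without replicates 3 and 6. Kl made up most of this, with 73.8 CPM in Fmr1-KO, against 66.7 CPM in WT on average, and Foxj1 had 3.29 CPM in Fmr1-KO, against 1.18 CPM in WT, while Ttr, Folr1, Ccdc153 and Tmem212 were at or near 0.

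The ribosomal protein genes were well expressed in CA1, at a median of 189 TPM over the 76 members (TPM is a level per transcript length, given here as the mean of 16 libraries). The interquartile range of the members lay between 139 and 249.9 TPM, a 1.79-fold range, while the whole range was 110-fold. The highest level was that of Rplp1 with 805 TPM, a protein of the stalk that recruits elongation factors to the large subunit. Rpl41, the shortest ribosomal protein, followed with 541 TPM, and then 3 small subunit members, Rps29 with 505, Rps15 with 497 and Rps21 with 475 TPM.

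The lowest levels of those tested were Rpl27 with 18.6 TPM, Rpl12 with 22.2, Rpl5 with 27.1, Rpl39 with 59.5 and Rps20 with 60.1 TPM. In Rpl27, Rpl12 and Rpl5, though not in Rpl39 and Rps20, more reads lay in copies than in the gene. Rps12, at 7.31 TPM, was listed at 0 in 14 of 16 libraries. It had 34.0 estimated counts in WT replicate 3, and it was the only member that failed the filter on low counts.

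A copy was defined as another symbol with a transcript that shares at least 50% of its 31-base words with a coding transcript of a member. There were 272 such symbols for 68 members, and they held 7.37% of the reads of members and copies together. In 5 members the copies held more reads than the gene, namely 98.0% for Rps12, 85.3% for Rpl27, 82.4% for Rpl12, 81.4% for Rpl5 and 57% for Rpl10. A further 8 members were above 10%, which the plot of reads in genes and copies shows.

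**Figure D1:**
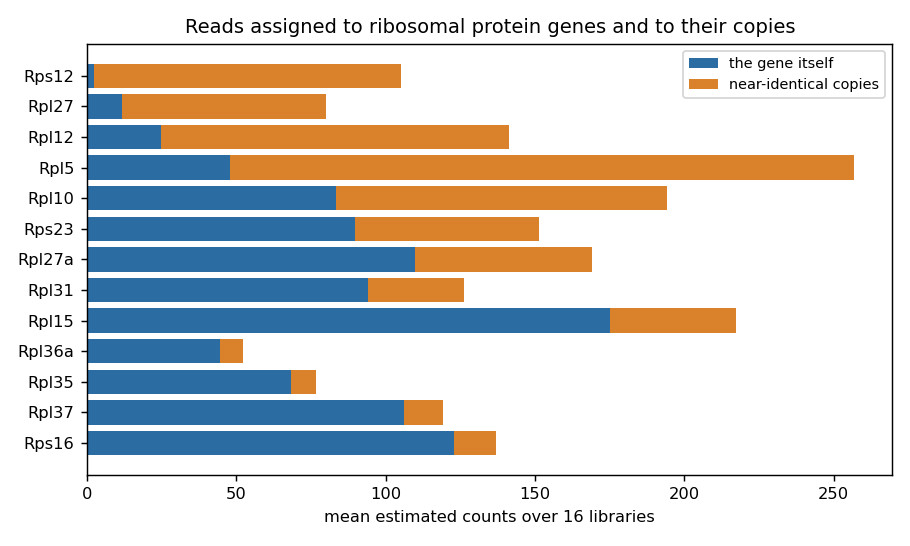
Mean estimated counts over 16 libraries (x axis) of the 13 ribosomal protein genes with at least 10% of their reads in near-identical copies; blue is the gene, orange its copies. For Rps12, Rpl27, Rpl12, Rpl5 and Rpl10 the orange part is the longer one.

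With the reads of all copies added, Rpl5 averaged 101 ± 18.4 CPM in Fmr1-KO animals and 106 ± 25.1 CPM in WT animals (SD, n = 8 each), beside 20.7 ± 8.33 CPM in Fmr1-KO animals and 17.8 ± 10.9 CPM in WT animals without them. Rpl5 binds the smallest RNA of the large subunit. Rps12 with its copies stood at 41.9 ± 18.3 CPM in Fmr1-KO, against 46.3 ± 11.2 CPM in WT. Levels of these 5 genes alone are therefore uncertain, and so is a difference between genotypes in them. The copy Rpl31-ps8 had 7.90 ± 4.54 CPM in Fmr1-KO, against 22.3 ± 10.6 CPM in WT, a log2 fold change of −1.40 (SE 0.44, edgeR adjusted p = 0.515). Rpl31 itself, with an identical coding sequence of 375 bases, stood at 38.0 ± 15.4 CPM in Fmr1-KO, against 37.2 ± 17.4 CPM in WT, and with all its copies added at 45.5 ± 18.01 CPM in Fmr1-KO, against 58.9 ± 16.6 CPM in WT (log2 fold change −0.38, SE 0.22).

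The members together took 0.464 ± 0.139% of the estimated counts of a library in Fmr1-KO and 0.520 ± 0.154% in WT (SD, n = 8 each). The animals of a genotype differed by more than the genotypes did. In Fmr1-KO the share was lowest at 0.360%, with a median of 0.399% and a highest value of 0.768% in replicate 5. In WT it was lowest at 0.354%, with a median of 0.451% and a highest value of 0.782% in replicate 8. The 2 ranges covered each other almost fully, and only Fmr1-KO replicate 5 and WT replicates 1, 2 and 8 were above 0.6%. The difference of the means, Fmr1-KO minus WT, was −0.056 percentage points, and it was −0.100 without Fmr1-KO replicate 5, −0.019 without WT replicate 8, −0.035 without WT replicate 1 and −0.096 without WT replicates 3 and 6.

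**Figure D2:**
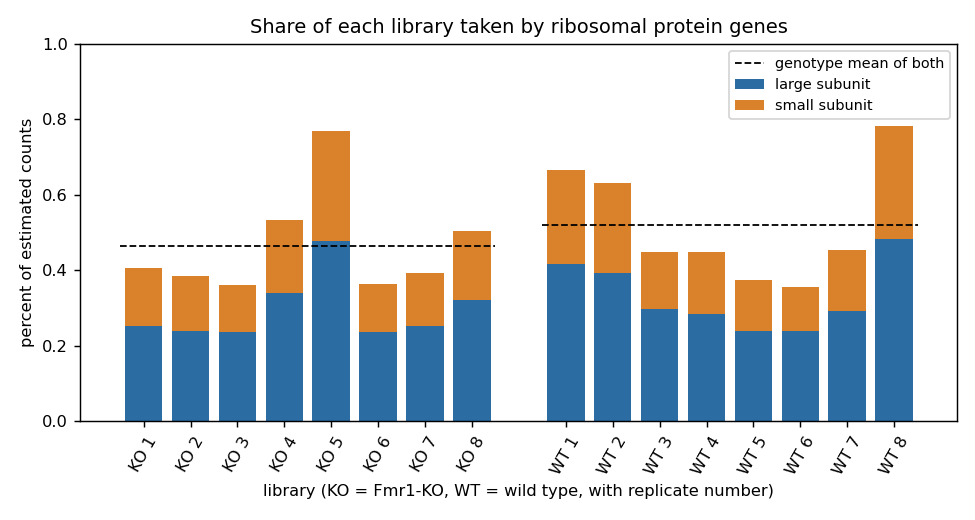
Percent of each library's estimated counts (y axis) in large (blue) and small (orange) subunit genes, Fmr1-KO animals on the left and WT animals on the right; dashed lines are genotype means. Fmr1-KO replicate 5 (0.768%) and WT replicate 8 (0.782%) are the highest of their genotypes.

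Both subunits followed the same animals. Large subunit genes took 0.295 ± 0.0845% in Fmr1-KO and 0.330 ± 0.0895% in WT libraries, and small subunit genes took 0.169 ± 0.0547% in Fmr1-KO and 0.190 ± 0.0644% in WT. The ratio of large to small subunit counts was 1.76 ± 0.10 in Fmr1-KO and 1.78 ± 0.16 in WT. That difference of −0.022 was within the spread, and it was 0.057 without WT replicates 3 and 6, 0.021 without WT replicate 6 and 0.002 without WT replicate 3.

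The same animals were high in most of the genes. Fmr1-KO replicate 5 had the highest level among Fmr1-KO libraries in 68 of the 75 tested members, and WT replicate 8 the highest among WT libraries in 51. Relative to the mean of 16 libraries, the median member stood at 0.71 log2 units in each of them, and at −0.41 in Fmr1-KO replicate 3, the lowest. The spread over animals differed between members. The coefficient of variation over 16 libraries had a median of 33.7%. It was lowest in Rps15a (16.7%), followed by Rpl4 (16.8%) and Rpl3 (16.9%), which lies near the site of peptide bond formation. Mean estimated counts of these members were 126, 530 and 638, against a median of 129 over all members. Their lengths were 1044, 1422 and 1298 bases, against a median of 715 bases. The part of counts and length in their low variation was not tested.

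**Figure D3:**
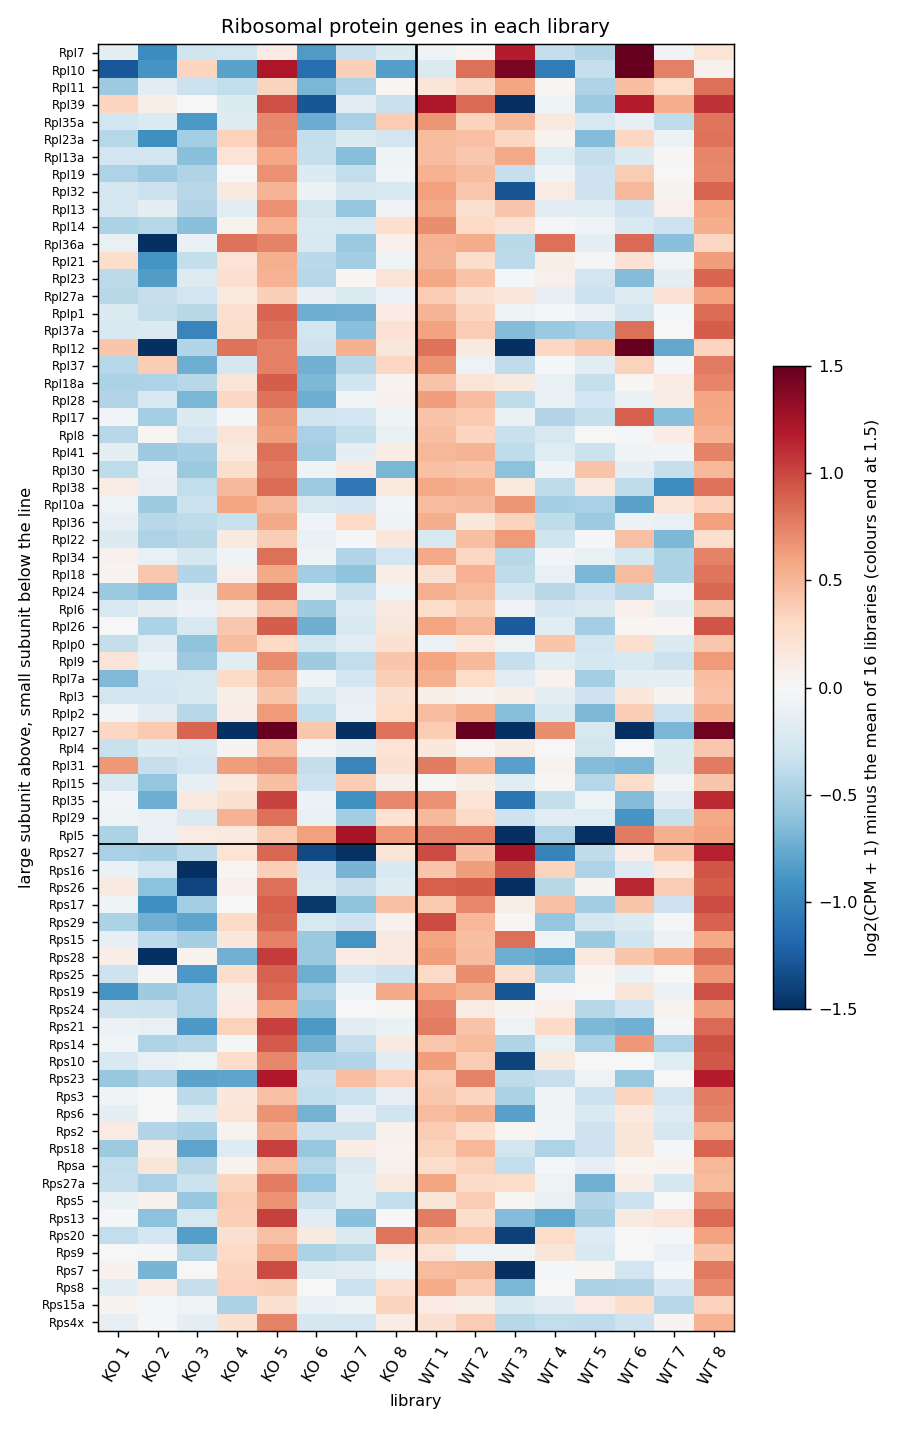
Each of 74 tested members (rows) in each library (columns, Fmr1-KO left of the line, WT right), coloured by log2(CPM + 1) minus its mean over 16 libraries. Red columns, with most members high, are Fmr1-KO replicate 5 and WT replicates 1, 2 and 8.

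Between genotypes, 72 of 75 tested members were lower in Fmr1-KO than in WT, against 51.9% of all 11515 genes tested. The differences were small: the median log2 fold change was −0.20, with an interquartile range from −0.30 to −0.12, against a median of −0.01 over all genes tested. No member passed an adjusted p of 0.05 in edgeR, nor in any of the other tools and settings run, beside 0.0174% of all genes. DESeq2 gave an adjusted p for only 8 of the 75 members. At an unadjusted p under 0.05 there were 6 members, all lower, against 7.89% of all genes in either direction, 4.28% lower and 3.61% higher. By the other tools run, the count at that p was 6 with DESeq2, beside 9.12% of all genes, and 34 with limma-voom and quality weights, beside 12.6% of all genes in that limma fit, where 74 members were lower, against 52% of all genes. In 69 members the log2 fold change lay within 2 standard errors of 0, and in all 75 the values of the genotypes overlapped, beside 0.0434% of genes without overlap. The members share libraries and are not independent of each other. In bulk tissue, fewer cells of a type and less RNA per cell cannot be told apart.

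The counts moved with single libraries. Without Fmr1-KO replicate 5 the median was −0.38, with 74 members lower (beside 52.3% of all genes) and 27 at an unadjusted p under 0.05 (beside 9.62% of all genes). Without WT replicate 8 it was −0.11, with 57 members lower (beside 50.4% of all genes) and 3 at that p (beside 6.94%). That count was likewise 3 when Fmr1-KO replicate 1, 2, 3, 6 or 7 or WT replicate 1 was left out (beside 7.28%, 7.47%, 6.2%, 6.1%, 6.3% and 7.22% of all genes, in that order), and it was 10 without WT replicate 5 (beside 9.27%). Without WT replicates 3 and 6, 74 members were lower (beside 50.3% of all genes), with a median of −0.26 and 5 members at that p (beside 7.32%).

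**Figure D4:**
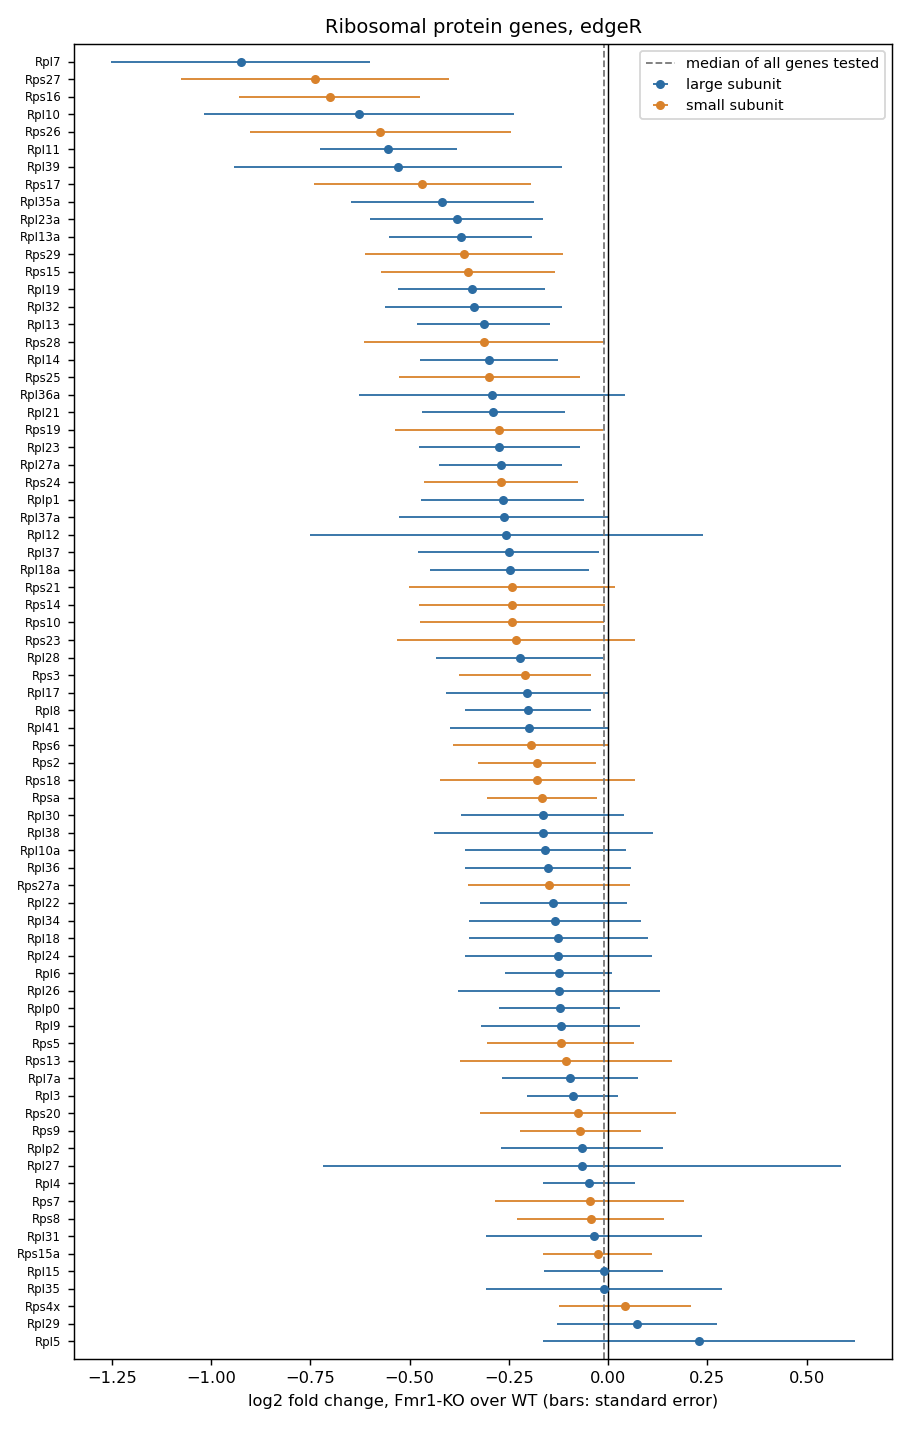
Log2 fold change, Fmr1-KO over WT (x axis, edgeR), of 74 of the 75 tested members, with bars of 1 standard error, large subunit in blue and small in orange; the dashed line is the median of all genes tested. All points but those of Rps4x, Rpl29 and Rpl5 lie left of 0.

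Large subunit members had a median log2 fold change of −0.20, with 44 of 46 lower, and small subunit members one of −0.23, with 28 of 29 lower. In the large subunit the smallest p was that of Rpl11 (ENSMUSG00000059291, chromosome 4 at 136028265 to 136053428), which with Rpl5 binds and inhibits Mdm2, the regulator of p53. Rpl11 had a lowest level of 36.4, a median of 46.5 and a highest of 75.1 CPM in Fmr1-KO, against 42.6, 73.0 and 106.2 CPM in WT. In 7 of 8 Fmr1-KO animals the level was below the WT median, and the ranges overlapped. The means were 50.1 ± 12.5 CPM in Fmr1-KO, against 74.2 ± 19.2 CPM in WT, a log2 fold change of −0.55 (SE 0.17, edgeR unadjusted p = 0.00402, adjusted p = 0.515).

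Rpl7 (ENSMUSG00000043716, chromosome 1 at 16101295 to 16104662) had the most negative log2 fold change of the members, −0.93 (SE 0.33, edgeR adjusted p = 0.572). Fmr1-KO animals spanned 60.1 to 127.5 CPM with a median of 95.7, and WT animals 86.0 to 625.8 CPM with a median of 116. The high WT values were those of replicate 6 with 625.8 and replicate 3 with 265.3 CPM, while the other 6 WT animals lay between 86.0 and 134.9 CPM. Without these 2 libraries the WT mean was 109 ± 18.2 CPM (n = 6), beside 92.8 ± 21.9 CPM in Fmr1-KO, and the log2 fold change was −0.23. Without WT replicate 6 alone it was −0.46.

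Rpl13a is a large subunit protein that in human cells is also released to silence translation of inflammatory mRNAs. It ran from 88.5 through a median of 113.9 to 207.2 CPM in Fmr1-KO and from 108.4 through 162.4 to 230.9 CPM in WT. Its log2 fold change was −0.37 (SE 0.18, edgeR unadjusted p = 0.0499, adjusted p = 0.630). Transcripts not annotated as protein-coding held 53.1% of its reads. Rpl13, Rpl19, Rpl35a and Rpl27a, the other large subunit members among the 10 with the smallest p, had log2 fold changes of −0.31, −0.34, −0.42 and −0.27. Copies held 35.0% of the reads of Rpl27a, and with all copies added its log2 fold change was −0.25 (SE 0.15). The unadjusted p of these members ran from 0.0739 to 0.0926, and in each the highest Fmr1-KO value, that of replicate 5, was above the WT median.

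Among small subunit members the smallest p was that of Rps16 (ENSMUSG00000037563, chromosome 7 at 28350652 to 28353155), whose start sequence above holds no tract and which had 10.3% of its reads in copies. It had a lowest level of 15.8, a median of 40.6 and a highest of 62.1 CPM in Fmr1-KO, against 34.8, 62.9 and 93.6 CPM in WT. It was the one member in which all 8 Fmr1-KO animals were below the WT median, although the ranges overlapped. The log2 fold change was −0.70 (SE 0.23, edgeR unadjusted p = 0.00536, adjusted p = 0.546). Its copy Rps16-ps2 had 7.39 ± 4.82 CPM in Fmr1-KO, against 4.81 ± 6.67 CPM in WT (0.85, SE 0.82). With all copies added, the log2 fold change of Rps16 was −0.55 (SE 0.19, edgeR adjusted p = 0.573).

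Rps27 (ENSMUSG00000090733), a zinc-finger protein of the small subunit, ran from 9.42 through a median of 20.4 to 51.7 CPM in Fmr1-KO and from 13.5 through 38.3 to 67.2 CPM in WT. Its log2 fold change was −0.74 (SE 0.34, edgeR adjusted p = 0.624). In 7 of 8 Fmr1-KO animals it was below the WT median, and the highest Fmr1-KO value was that of replicate 5.

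A positive log2 fold change was found in 3 members, against 48.1% of all genes tested. Rpl5 stood at 20.7 ± 8.33 CPM in Fmr1-KO, against 17.8 ± 10.9 CPM in WT (0.23, SE 0.39), and its sign turned to −0.10 with its copies added. Rpl29 stood at 55.5 ± 18.2 CPM in Fmr1-KO, against 50.9 ± 17 CPM in WT (0.07, SE 0.20), and Rps4x, which is X-linked as Fmr1 is, at 86.4 ± 22.9 CPM in Fmr1-KO animals and 82.5 ± 22.5 CPM in WT animals (0.04, SE 0.17). Both turned negative without Fmr1-KO replicate 5, at −0.06 for Rpl29 and −0.09 for Rps4x, and without WT replicates 3 and 6, at −0.03 and −0.04.

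The members with the highest levels per length had log2 fold changes within the range of the others. Rplp1 had 123 ± 52.6 CPM in Fmr1-KO, against 146 ± 41.5 CPM in WT (log2 fold change −0.27, SE 0.21), and Rpl41 had 79.9 ± 29.6 CPM in Fmr1-KO animals and 90.6 ± 28.2 CPM in WT animals (−0.20, SE 0.20). Rps29, Rps15 and Rps21 had log2 fold changes of −0.36, −0.35 and −0.24. Rps27a, which is made as a fusion with ubiquitin, had 52.7 ± 19.0 CPM in Fmr1-KO, against 58.5 ± 16.0 CPM in WT (−0.15, SE 0.20).

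Among the low members the log2 fold changes were −0.53 for Rpl39 (SE 0.41), −0.26 for Rpl12 (SE 0.49), −0.08 for Rps20 (SE 0.25) and −0.07 for Rpl27 (SE 0.65). Rpl12, at the base of the stalk, had 42.1 CPM in WT replicate 6 and at most 15.7 CPM in the other WT libraries, and without that library its log2 fold change was 0.05. In Rpl27, 4 libraries were at 0.

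Transcripts of the members are short, and short genes as a class were high or low in the same animals. Weighted by abundance, 61 of the 76 members were under 1000 bases, against 7.95% of all tested genes. Members under 1000 bases had a median log2 fold change of −0.24 and the other 15 one of −0.12. Of the 856 other tested genes under 1000 bases, 70.8% were lower in Fmr1-KO, with a median of −0.16. The median was −0.06 for other genes of 1000 to 2000 bases, 0.00 from 2000 to 4000 bases, and 0.06 from 4000 bases on, where 37.9% were lower.

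The animals with high ribosomal protein levels were also those in which the median of other short genes was high. Relative to the mean of 16 libraries, other genes under 1000 bases had a median of 0.47 log2 units in Fmr1-KO replicate 5 and 0.46 in WT replicate 8, and genes of 4000 bases or more had −0.19 and −0.16. The 4 libraries with the largest ribosomal protein share were the 4 with the highest median of other short genes, and 3 of them were among the 4 with the largest share of mitochondrially encoded mRNAs. By the share of the library in other short genes, 1 of them, WT replicate 8, was among the 4 highest. The part of transcript length in the genotype difference was not tested.

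**Figure D5:**
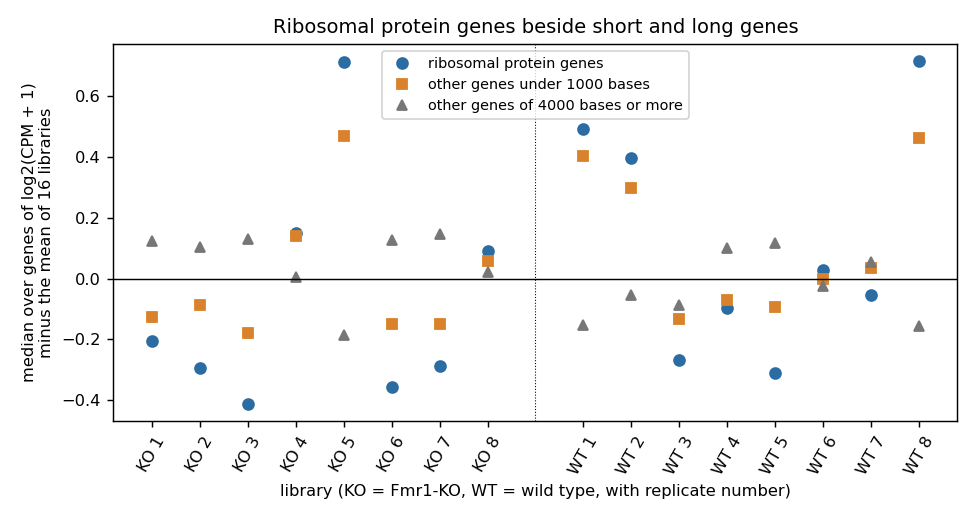
Median over genes of log2(CPM + 1) minus the mean of 16 libraries (y axis) in each library, Fmr1-KO left and WT right, for ribosomal protein genes (circles), other genes under 1000 bases (squares) and other genes of 4000 bases or more (triangles). Circles and squares are high together in Fmr1-KO replicate 5 (0.71 and 0.47) and WT replicate 8 (0.71 and 0.46), where triangles are low.

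TPM values divide by length within a library. By TPM the members took 1.62 ± 0.58% of a library in Fmr1-KO, against 1.61 ± 1.03% in WT (SD, n = 8 each), so the small difference had the opposite sign to that by counts. The WT mean was 1.99 ± 0.86% without replicates 3 and 6 (n = 6). That mean still held WT replicate 5, which was not shallow (2747992 estimated counts) but had only 0.765% by TPM. The lowest Fmr1-KO library had 1.21%. The cause of this low value was not tested. In log2(TPM + 1) the median log2 fold change of all genes was 0.51, a shift upward in Fmr1-KO whose cause was not tested. Relative to that shift 57 of 75 members were lower, with a median of −0.09. In log2(TPM + 0.1) the shift was 0.61, and 66 members were lower, with a median of −0.19. Without taking off the shift, 4 of 75 members were lower in each of these fits. No member was at an unadjusted p under 0.05, beside 6.72% of all genes in log2(TPM + 1) and 5.85% in log2(TPM + 0.1).

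The make-up of the members' reads differed between genotypes by less than the spread between animals. Protein-coding transcripts held 93.9 ± 0.90% of them in Fmr1-KO and 93.9 ± 1.31% in WT, and transcripts with a retained intron 2.95 ± 0.65% in Fmr1-KO and 2.59 ± 0.65% in WT (SD, n = 8 each). The members with a pyrimidine tract near their start had a median log2 fold change of −0.20 (29 tested), and those without one also −0.20 (26 tested).

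Genes related by function were read from the same fit, and in none of the lists that follow did a gene pass an adjusted p of 0.05. Fau, whose protein is made as a fusion with a ubiquitin-like protein, had a log2 fold change of −0.25 (SE 0.24). Of 5 tested paralogues, 3 were lower, with a median of −0.06. Their log2 fold changes were −0.26 for Rpl22l1, −0.17 for Rps4l, −0.06 for Rpl7l1, 0.12 for Rps27l and 0.14 for Rpl36al. With WT replicates 3 and 6 left out, 4 of them were lower, at a median of −0.18. Of 19 other mRNAs listed as TOP mRNAs, 16 were lower and 3 higher, with a median of −0.11. The smallest p were those of Vim (−0.90, SE 0.49), Eif4b (0.14, SE 0.08) and Tpt1 (−0.30, SE 0.18). Without WT replicates 3 and 6 their log2 fold changes were −0.01, 0.13 and −0.14, in that order. Tpt1 had 114 ± 26.7 CPM in Fmr1-KO, against 145 ± 54.3 CPM in WT. The list of elongation and termination factors had 8 of 14 lower and a median of −0.06, with Eef2, which moves the ribosome along the mRNA, at −0.14. Medians without WT replicates 3 and 6 were −0.09 for the TOP mRNAs (17 of 19 lower) and −0.10 for the elongation and termination factors (9 of 14 lower).

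Proteins of the mitochondrial ribosome were lower in 50 of 76 genes, with a median of −0.11, and Mrpl41 (−0.53) was the 1 gene at an unadjusted p under 0.05, beside 7.89% of all genes. Without WT replicates 3 and 6, 52 of 77 were lower, with a median of −0.13 and 5 at that p, beside 7.32% of all genes. Ribosome biogenesis factors were lower in 22 of 39 genes, with a median of −0.01, and in 19 of 39, with a median of 0.00, without WT replicates 3 and 6. Regulators of ribosomal protein mRNAs were lower in 9 of 19 genes, with a median of 0.07. Of these, 2 were at an unadjusted p under 0.05, both higher, beside 3.61% of all genes higher at that p. They were Tsc2, which restrains mTOR, with 227 ± 22.7 CPM in Fmr1-KO, against 189 ± 35.3 CPM in WT (0.25, SE 0.11), and Rptor, the adaptor of mTOR complex 1, with 119.9 ± 14.1 CPM in Fmr1-KO, against 101 ± 17.4 CPM in WT (0.23, SE 0.11). Without WT replicates 3 and 6 their log2 fold changes were 0.14 for Tsc2 and 0.19 for Rptor, and the list had a median of 0.03. In that fit 0 of its genes were higher and 1 was lower at that p, beside 473 higher and 395 lower of all 11866 genes (7.32% in either direction).

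Markers of several other cell types had negative median log2 fold changes as well, and their part in the ribosomal protein difference was not tested. Of the endothelial and pericyte markers 10 of 10 were lower, at a median log2 fold change of −0.71. Their sum ranged from 90.3 to 170.6 CPM in Fmr1-KO and from 107.7 to 461.1 CPM in WT. Without WT replicates 3 and 6 the highest WT sum was 210.4 CPM. Over all 16 libraries the medians were −0.40 for oligodendrocytes (10 of 10 lower), −0.38 for astrocytes (9 of 9), −0.31 for microglia (9 of 9) and −0.23 for interneurons (7 of 10). They were −0.42 for blood (2 of 3), −0.17 for other hippocampal fields (3 of 4) and −0.08 for CA1 pyramidal cells (7 of 10). Of the choroid plexus and ependyma list only Kl was tested, at 0.18, so this value is that of 1 gene. Without WT replicates 3 and 6 the medians were −0.35 for endothelium and pericytes (9 of 10 lower) and −0.37 for oligodendrocytes (9 of 10). They were −0.11 for astrocytes (7 of 9), −0.16 for microglia (9 of 9) and −0.07 for interneurons (5 of 10). In the same fit they were −0.65 for blood (3 of 3), 0.02 for other hippocampal fields (2 of 4) and −0.06 for CA1 pyramidal cells (6 of 10). Kl was at 0.17. The sum of interneuron markers was highest in the 4 libraries with the largest ribosomal protein share, at 792 CPM in Fmr1-KO replicate 5 and at 784, 777 and 671 CPM in WT replicates 8, 2 and 1. The next value was 665 CPM in WT replicate 5. The sum of mitochondrial ribosome genes was highest in the same 4 libraries, so this order was not particular to interneuron markers. That sum was 1665 CPM in Fmr1-KO replicate 5 and 1613, 1469 and 1550 CPM in WT replicates 8, 2 and 1. Of the interneuron sum, 560 CPM on average in Fmr1-KO and 638 CPM in WT, Cck alone held 259 and 312 CPM. The 13 mitochondrially encoded mRNAs had negative log2 fold changes throughout, with a median of −0.26 and 3 at an unadjusted p under 0.05 (beside 7.89% of all genes). This median was −0.14 without WT replicates 3 and 6, with 0 at that p (beside 7.32%).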

How the data were processed

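RNA sequencing of CA1 was deposited as 1 table per library with 111706 transcripts. FastQC, cutadapt, kallisto and DESeq2 were used, per the submitters' processing notes. Tool versions, transcript index and genome build: not given in the sources used here. In the deposited tables the estimated counts, which can be fractional, come from a model that divides reads between transcripts. The deposited TPM values are scaled by effective length within a library by the authors' quantification and hold no depth. Reads shared by near-identical copies are divided by that model, so estimates of members with copies are uncertain.

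Estimated counts were summed by gene symbol and rounded. All genes were tested in 1 fit with the edgeR 4.0.16 quasi-likelihood test in R 4.3.3 (TMM, filterByExpr with a minimum count of 10, genotype only), with Benjamini-Hochberg adjustment over 11515 genes and a threshold of 0.05. The standard error is the size of the log2 fold change divided by the square root of F. Shares, ratios and medians over members were described without a test. The script was tested on simulated data. Alternatives were DESeq2 1.42.0, limma 3.58.1 (voom with quality weights, and log2 TPM with pseudocounts of 1 and 0.1 for genes with at least 1 TPM in 8 libraries), other scalings and filters, the letter of the animal label, protein-coding transcripts, added pseudogenes, and omitted libraries. The sum over all copies was added after seeing the data.

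The members and lists were chosen with earlier results of these data known. Named members are the 10 with the smallest p, all with an unadjusted p under 0.05, all with a positive log2 fold change, the 5 highest and 5 lowest of those tested by TPM, those that failed the filter, and Rps27a. Up to 3 genes with the smallest p could be named from each other list. Rpl31, Rpl10, Rpl3, Rpl4, Rps15a and the copies were chosen after their values were seen. Rack1, Utp4 and Mrpl58 were not matched by symbol, and protein sequences were not used here. Some genes that the rule selects are not reported here. Depth ranged from 515103 to 3275003 estimated counts per library.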

Additional observations from a re-analysis of the deposited data

Results flagged for a closer look

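With 8 libraries in a genotype, a value was picked out where 1 library stood far from the nearest other one relative to the whole range (Dixon's criterion at 95%). Chance alone picks out about 1 in 20 groups, and 10 of 55 were picked out here; the members share libraries, so these are not independent.

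Fmr1-KO replicate 5 accounted for 7 of them. Its ribosomal protein share was 0.768% of the library, with 0.478% in large and 0.291% in small subunit genes, where the next Fmr1-KO library had 0.533%, 0.341% and 0.192%. Rpl13 was at 170.3 CPM in that library, Rpl19 at 126.8, Rps4x at 137.9 and Rpl41 at 145.1 CPM, against at most 100.9, 78.0, 96.4 and 90.0 CPM in the other Fmr1-KO libraries.

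The others lay in the 2 shallow WT libraries. Rpl7 was at 625.8 CPM and Rpl12 at 42.1 CPM in WT replicate 6, and the next WT values were 265.3 and 15.7 CPM. Rps12 was at 40.8 CPM in WT replicate 3 and listed at 0 in the other WT libraries.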

How the results depend on the processing

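No paired analysis was possible because the genotypes share no animal number in the labels, and replicate numbers here only follow the order of the samples. Genes past the threshold numbered 2, and 5 without a filter, 8 with DESeq2 (which gave an adjusted p for 1916 genes, Fmr1 not among them), 7 with limma-voom, 1 in log2(TPM + 1) and 0 in log2(TPM + 0.1), where no member was at an unadjusted p under 0.05; leaving out 1 library gave 2 to 3. Members at that p numbered 6 (beside 7.89% of all genes), and 34 with limma-voom (12.6%), 0 in each TPM fit (6.72% and 5.85%) and 3 to 27 with 1 library left out (6.1% to 9.62%). Members lower ranged from 57 to 74, and their median log2 fold change from −0.40 to −0.09, over all settings, with the TPM fits taken relative to the median of all genes (4 lower without this); with 1 library left out it ran from −0.38 to −0.11. The difference in share of counts ran from −0.100 to −0.019. The ratio of the subunits was reversed without WT replicates 3 and 6 (0.057), and with 1 library left out it ran from −0.044 to 0.021. The targeted gene check, Fmr1, was −0.89 in log2(TPM + 1) and −1.01 in log2(TPM + 0.1), and did not pass in these fits; with DESeq2 it was −1.41 with no adjusted p. With 1 library left out it ran from −1.498 to −1.25. Reversed signs were −0.12 and −0.029 for Rpl29 and −0.13 and −0.039 for Rps4x (limma-voom, and without WT replicates 3 and 6), −0.10 for Rpl5 and 0.028 for Rps20 with all copies added, 0.0059 for Rps20 and 0.032 for Rpl27 in protein-coding transcripts, 0.16 and 0.13 for Rps20 and 0.00036 and 0.31 for Rpl39 in the TPM fits, 0.018 for Rpl27 with DESeq2 and −0.20 for Rpl36al with limma-voom. With 1 library left out, log2 fold changes ran from −0.065 to 0.18 for Rpl29, −0.088 to 0.14 for Rps4x, −0.22 to 0.024 for Rps20, −0.39 to 0.047 for Rpl12 and −0.47 to 0.26 for Rpl27. The cause of these moves was not tested. Few counts limit the precision of members such as Rpl27, with a mean of 11.8 estimated counts per library, which also had 85.3% of its reads in copies.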
